A study of Mus musculus with 18 samples.

Results

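The genes described here are those of cholesterol synthesis, sterol sensing and sterol handling inside the cell, 29 in all. They were chosen by name from the pathway, with earlier results of these data known, and matched to probe sets by gene symbol. The counts and ranks below therefore describe a list that was not drawn up blind to the data. Of the 29, 27 had at least 1 probe set annotated to them alone, and all 27 passed the filter on low signal among 11547 genes tested. Acat2, an acetyl-CoA thiolase, and Soat1, which esterifies cholesterol, were not measured here. Sc4mol was read under its current name, Msmo1. None of the 29 is a lipoprotein receptor, so uptake is represented only by genes of a neighbouring list given further on. Lrp8 and Scarb1 are the receptors named there, since genes of such lists were named by largest difference among those called. The list holds 8 enzymes of the mevalonate pathway and 11 enzymes between farnesyl diphosphate and cholesterol. It also holds 6 genes of sterol sensing and SREBP processing, explained below, and 4 of sterol transport, storage or acetate use.

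The cells were RAW264.7, a mouse macrophage line from a virus-induced tumour. They received 1 of 3 treatments for 8 h. Vehicle cells had 0.1% DMSO, the solvent. Fraction cells had 10 ug/mL of a Hypericum perforatum sub-fraction, made from the herb St. John's wort. Mixture cells had 4 compounds together, namely amentoflavone at 0.07 uM, pseudohypericin at 0.03 uM, quercetin at 0.08 uM and chlorogenic acid at 0.2 uM. No DMSO content is recorded for the fraction and mixture cells, so an equal amount of solvent is not shown. Each treatment was run without and with 10 ug/mL bacterial lipopolysaccharide (LPS), which gave 6 groups of 3 Affymetrix arrays. All groups were dosed in the dark and then held in ambient light for 30 min before going back to the incubator, so no group was kept dark. One line, one dose of the fraction, one composition of the mixture and one time were studied. The labels do not state that arrays within a group are separate cultures. The spread that the p-values rest on is therefore that among these arrays, and it may be technical.

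In mammalian cells, acetyl-CoA is turned into cholesterol through mevalonate, farnesyl diphosphate, squalene and lanosterol. Transcription of most of these enzymes is driven by SREBP2, the product of Srebf2, a membrane-bound precursor that SCAP carries to the Golgi when the endoplasmic reticulum is low in sterols. There the site 1 and site 2 proteases (Mbtps1 and Mbtps2) release its active part. When sterols are plentiful, the INSIG proteins hold SCAP back. Macrophages also take in cholesterol from lipoproteins and dead cells and export it through ABC transporters.

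The arrays gave MAS5 signals, a linear brightness scaled to a common mean, so values are relative to the other RNA on the same array and differences in total RNA are scaled out. In such bulk samples, fewer cells carrying a transcript and less of it per cell cannot be told apart. Correlations between arrays of 1 group lay between 0.967 and 0.978, and no array stood apart. LPS raised Il1b by 7.30 ± 0.21 and Ptgs2 by 2.75 ± 0.17 (log2 difference ± SE) in vehicle cells. Of 8 macrophage markers, 7 were at or above the array median on all 18 arrays, and Mertk on 0. Of 16 markers of other cell types with a probe set, 12 were below the array median on every array, while Epcam was at or above it on 9 arrays, Kdr on 8, and Cd3e and Cd79a on 1 each. Summed over these 16 markers, the signal was 253 to 408 on vehicle arrays, 266 to 385 on fraction arrays, 422 to 510 on vehicle arrays with LPS and 346 to 464 on fraction arrays with LPS, ranges that overlap within each LPS state. On mixture arrays it was 369 to 455 without and 409 to 450 with LPS. The macrophage sum was 71147 to 83837 and 76102 to 86128 without LPS, and 86826 to 93281 and 86299 to 99072 with LPS, in the same order of treatments. On mixture arrays it was 86582 to 94879 without and 96388 to 104151 with LPS, above the vehicle ranges in both states and, without LPS, above the fraction range too. Single macrophage markers did differ between fraction and vehicle, with Ptprc at 0.53 without LPS and 0.33 with it, and Adgre1 at 0.33 and Itgam at -0.58 with LPS. The part of these differences in the results was not tested.

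The first question was what the fraction did to these transcripts. Without LPS, 18 of the 27 measured genes were lower in fraction cells than in vehicle cells and 1, Insig2, was higher, at an adjusted p under 0.05 with limma. Of all genes tested, 15.3% were lower and 15.9% were higher. With LPS, 18 of 27 were again lower and 0 higher, against 12.7% lower and 11.1% higher of all genes, and at an unadjusted p under 0.05 Insig2 alone was higher. The median log2 difference of the 27 was -0.51 without LPS and -0.65 with it, where that of all tested genes was 0.02 and -0.02. The same 17 genes were lower in both LPS states, as were 8.17% of all genes. Scap passed without LPS and not with it, and Pmvk the reverse, while no difference between the LPS states passed for either. The 8 genes lower in neither state were Mvk, Fdps, Ggps1, Tm7sf2, Insig2, Mbtps1, Mbtps2 and Acss2.

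Array by array, the mean log2 signal of the 27 genes relative to the vehicle mean was -0.64, -0.60 and -0.66 on the fraction arrays and -0.76, -0.84 and -0.83 on the fraction arrays with LPS. The other 12 arrays lay between -0.14 and 0.12. No array of another group came near the 6 fraction arrays. Within the vehicle group, 16 of the 27 genes had their lowest value on array 1 and 19 had their highest on array 2. This tilt was also present among the mixture arrays, where 17 were lowest on array 1 and 15 highest on array 2. The same counts were 12 and 13 for fraction, 11 and 14 for vehicle with LPS, and 14 and 12 for mixture with LPS. The fraction arrays with LPS had no such tilt (9 and 9). The median SD of the 27 genes was 0.16 (log2) in vehicle cells and 0.11 in fraction cells, where that of all genes was 0.16 and 0.15.

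**Figure D1:**
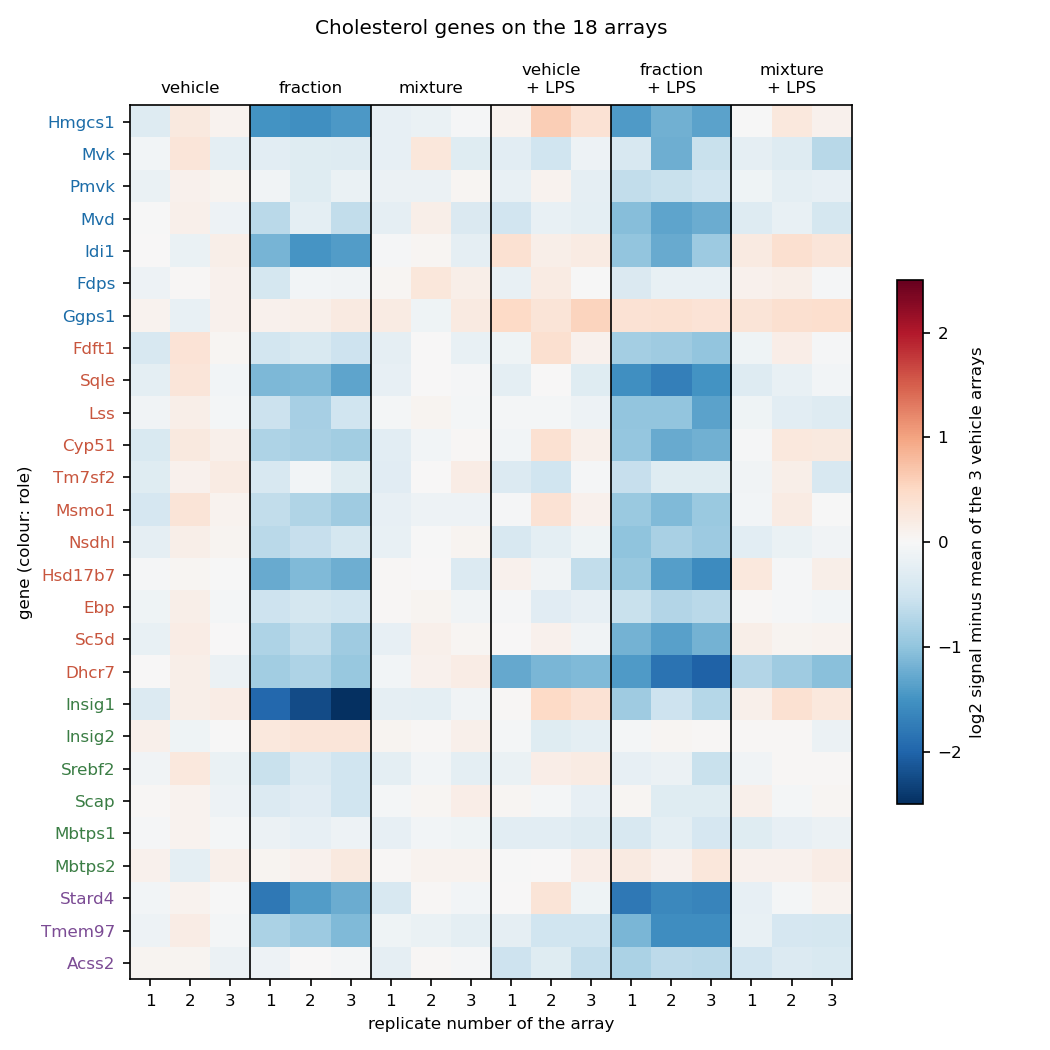
Heat map of log2 signal minus the mean of the 3 vehicle arrays for the 27 measured genes (rows, coloured by role) on the 18 arrays (columns, 3 per group). Blue marks lower and red higher signal. The blue columns are the 6 fraction arrays, most strongly for Insig1, Stard4, Hmgcs1, Idi1 and Sqle, and Dhcr7 is also blue on the vehicle and mixture arrays with LPS.

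Because many of these genes moved together, the stretch of 250 bases before the start of 4 of them is shown, from RefSeq on GRCm38.p6, 5' to 3' on the strand of the gene. Hmgcs1 (chr13:119690101-119690350, plus strand), Idi1 (chr13:8885356-8885605, plus) and Insig1 (chr5:28071162-28071411, plus) were lower with the fraction in both LPS states, and Ggps1 (chr13:14063489-14063738, minus) in neither. Capitals mark TCACNCCAC, one written form of the sterol regulatory element to which SREBPs bind, and ATTGG or its reverse CCAAT, the core to which the factor NF-Y binds.
Hmgcs1: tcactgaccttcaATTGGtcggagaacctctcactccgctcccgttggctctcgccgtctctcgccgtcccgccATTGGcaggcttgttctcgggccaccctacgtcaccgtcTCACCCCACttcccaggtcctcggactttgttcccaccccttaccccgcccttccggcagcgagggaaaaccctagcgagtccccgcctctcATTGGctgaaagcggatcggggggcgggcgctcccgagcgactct
Idi1: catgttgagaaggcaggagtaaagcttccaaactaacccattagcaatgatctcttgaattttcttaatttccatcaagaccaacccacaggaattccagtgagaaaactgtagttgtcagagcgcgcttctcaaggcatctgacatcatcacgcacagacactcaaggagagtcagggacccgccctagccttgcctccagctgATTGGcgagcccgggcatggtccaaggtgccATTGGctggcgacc
Insig1: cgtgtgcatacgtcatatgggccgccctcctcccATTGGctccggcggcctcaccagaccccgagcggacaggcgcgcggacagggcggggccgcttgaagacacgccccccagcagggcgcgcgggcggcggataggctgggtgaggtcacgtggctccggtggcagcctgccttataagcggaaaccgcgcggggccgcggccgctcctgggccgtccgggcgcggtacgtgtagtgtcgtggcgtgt
Ggps1: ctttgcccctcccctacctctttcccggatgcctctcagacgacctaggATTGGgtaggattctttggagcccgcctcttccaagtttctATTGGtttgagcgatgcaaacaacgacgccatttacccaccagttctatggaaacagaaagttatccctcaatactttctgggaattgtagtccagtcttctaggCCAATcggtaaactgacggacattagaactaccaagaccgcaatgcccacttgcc
In Hmgcs1 the TCACNCCAC match starts at base -137 from the gene start, and ATTGG starts at -237, -176 and -45. The Idi1 stretch has ATTGG at -45 and -14 and the Insig1 stretch at -216. Ggps1, which did not pass the test, has the core as well, at -201, -160 and -55.

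The table of starts held 31 windows of 300 bases (250 before and 50 after the start) for 25 of the 29 genes. Both strands were searched. TCACNCCAC was found in 1 of the 25 genes (4.0%), against 1.44% of all 27025 genes with a window. ATTGG or CCAAT was found in 21 (84.0%, against 41.1%), and GGGCGG, a core bound by Sp1-type factors, in 22 (88.0%, against 38.2%). The 27025 genes include many that were not tested on the arrays, and no share was taken over tested genes alone. ATTGG or CCAAT was also found in Mvk, Ggps1, Tm7sf2, Insig2 and Acss2, which were lower with the fraction in neither LPS state. Matches of different motifs overlapped in 0 cases in these windows, and a gene with several starts had several windows searched. A match is a description of letters, not of a bound site, and the search shows nothing about windows or spellings other than these.

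Of the mevalonate pathway, 3 of 7 measured enzymes were lower with the fraction without LPS (Hmgcs1, Mvd, Idi1) and 4 of 7 with LPS (the same 3 and Pmvk). Hmgcs1 makes HMG-CoA, the substrate of the rate-limiting step. Its signal on the 3 arrays was 2725, 4019 and 3594 in vehicle cells and 1208, 1172 and 1257 in fraction cells. The LPS arrays gave 3615, 5226 and 4348 in vehicle cells and 1271, 1482 and 1354 in fraction cells. Every fraction array was below every vehicle array, and the log2 difference was -1.49 ± 0.13 (SE, adjusted p = 6.4e-08) without and -1.67 ± 0.13 (3.5e-08) with LPS. All 5 of its probe sets passed as lower in both states, at -1.38 to -1.74 and at -1.53 to -1.99.

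Idi1 interconverts the 2 isoprenoid building blocks. It read 2839, 2508 and 3097 in vehicle cells and 1256, 1011 and 1063 in fraction cells. With LPS it read 3636, 3097 and 3254 in vehicle cells and 1415, 1174 and 1489 in fraction cells. The groups did not overlap in either state, with differences of -1.34 ± 0.11 (2.7e-08) and -1.30 ± 0.11 (9.3e-08). Mvd, which decarboxylates mevalonate diphosphate, was at -0.51 ± 0.15 (0.011) and -0.90 ± 0.15 (1.6e-04). Its call without LPS was lost without vehicle array 2 (adjusted p = 0.052), without fraction array 1 (0.054) or without all 6 arrays numbered 1 (0.11). Pmvk, the kinase before it, was at -0.19 ± 0.12 (0.26) and -0.44 ± 0.12 (0.0088), the latter lost without vehicle LPS array 2 (0.063).

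The other 3 enzymes of this stretch did not pass in either state. Mvk, which phosphorylates mevalonate, was at -0.30 (95% interval -0.73 to 0.14) and -0.43 (-0.86 to 0.01). Fdps, which makes farnesyl diphosphate, was at -0.20 (-0.42 to 0.02) and -0.24 (-0.46 to -0.02). Ggps1, which leads from farnesyl diphosphate to geranylgeranyl diphosphate and away from sterols, was at 0.16 (-0.07 to 0.38) and -0.10 (-0.33 to 0.13). The intervals of Ggps1 end well above those of Hmgcs1 (-1.76 to -1.21 without LPS) and Idi1 (-1.58 to -1.11).

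Between farnesyl diphosphate and cholesterol, 10 of 11 enzymes were lower in both LPS states, with a median of -0.75 without and -1.04 with LPS. Sqle, the squalene epoxidase and first oxygen-dependent step, read 2620, 3818 and 2938 in vehicle and 1425, 1444 and 1237 in fraction cells. Under LPS the values were 2601, 3106 and 2501 in vehicle and 1061, 949 and 1092 in fraction cells. These groups were fully separate, and the differences were -1.18 ± 0.12 (5.4e-07) and -1.40 ± 0.12 (1.1e-07). Hsd17b7, a 3-ketosteroid reductase of the same route, read 630, 670 and 638 in vehicle and 268, 299 and 277 in fraction cells. The LPS arrays gave 696, 605 and 423 in vehicle and 333, 248 and 218 in fraction cells. The vehicle arrays with LPS were spread more widely than those without, yet all 3 stayed above the fraction arrays, and the differences were -1.20 ± 0.17 (2.3e-05) and -1.10 ± 0.17 (9.9e-05).

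Cyp51, the lanosterol demethylase, read 1340, 2067 and 1885 in vehicle and 1020, 983 and 953 in fraction cells. With LPS it read 1644, 2245 and 1892 in vehicle and 886, 729 and 756 in fraction cells. No arrays overlapped, and the differences were -0.82 ± 0.14 (2.1e-04) and -1.28 ± 0.14 (2.6e-06). Sc5d, the C5 desaturase near the end of the route, read 1543, 1973 and 1748 in vehicle and 1029, 1136 and 943 in fraction cells. Under LPS the values were 1746, 1893 and 1653 in vehicle and 766, 682 and 772 in fraction cells. Here too the groups were separate, with differences of -0.76 ± 0.11 (2.2e-05) and -1.25 ± 0.11 (8.5e-08).

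The other enzymes of this route are given by their differences. Fdft1, the squalene synthase at the branch into sterols, was at -0.45 ± 0.15 (0.024) without and -1.03 ± 0.15 (4.7e-05) with LPS. Without LPS its vehicle signals of 987, 1639 and 1345 overlapped the fraction signals of 944, 996 and 903. That call was lost when vehicle array 2 (adjusted p = 0.17), vehicle array 3 (0.071), fraction array 1 (0.057) or fraction array 3 (0.074) was left out. Lss, the lanosterol synthase, was at -0.62 and -1.04, Msmo1, a C4-methyl oxidase, at -0.75 and -1.14, and Nsdhl, a C3 dehydrogenase, at -0.57 and -0.65. Ebp, a sterol isomerase, was at -0.48 in both states. Tm7sf2, a C14 reductase, was the one enzyme of the 11 that did not pass, at -0.26 (95% interval -0.64 to 0.12) and -0.10 (-0.48 to 0.28). The brightest probe sets of Hmgcs1, Fdft1, Lss and Hsd17b7 are of kinds that can also bind related transcripts.

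**Figure D2:**
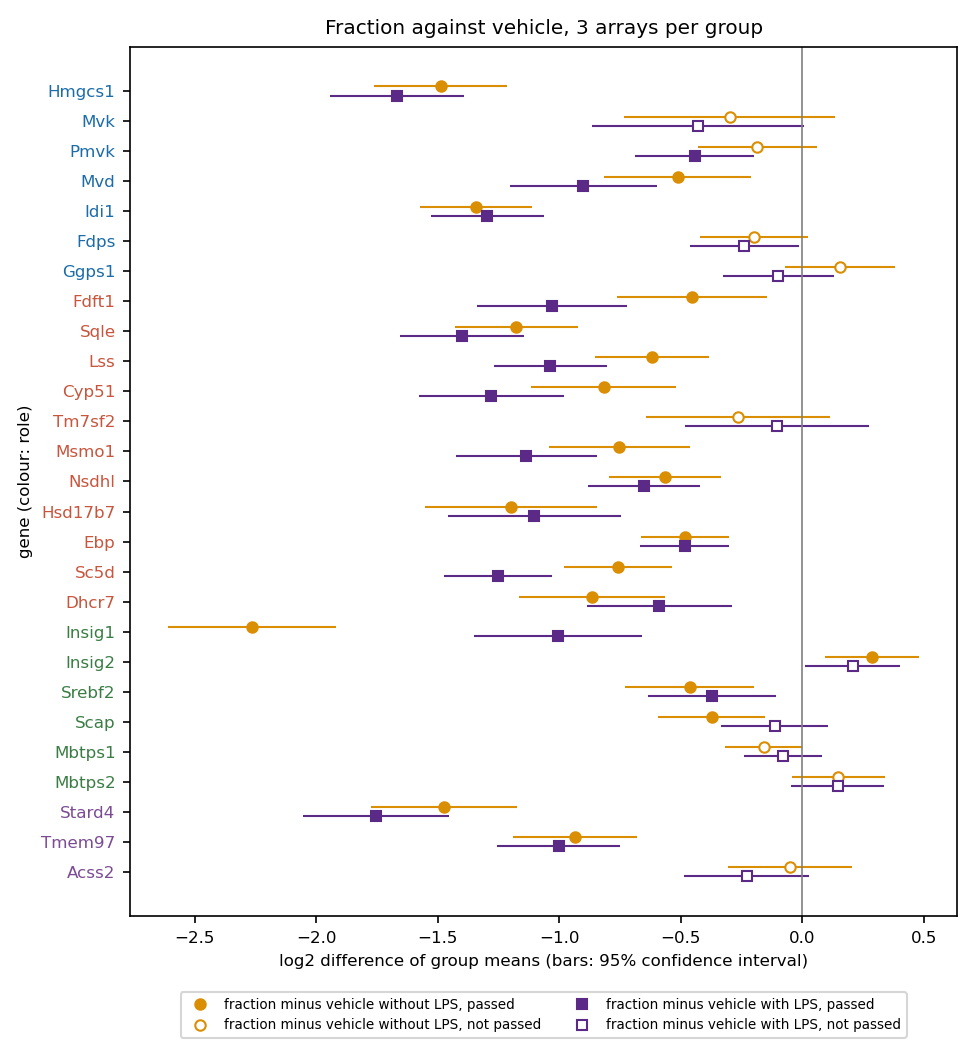
Log2 difference of fraction minus vehicle for each of the 27 genes, without LPS (orange circles) and with LPS (purple squares), 3 arrays per group, with 95% confidence intervals as bars. Filled symbols passed the test at an adjusted p under 0.05, and Insig1 is the gene whose 2 symbols lie farthest apart, at -2.27 and -1.0.

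Of the 6 genes of sterol sensing and SREBP processing, 3 were lower and 1 higher without LPS, and 2 were lower with LPS. Insig1, which retains SCAP and is itself a known target of SREBPs, had the largest fall of the set without LPS. It read 707, 988 and 1017 in vehicle cells and 228, 190 and 147 in fraction cells. The LPS arrays gave 909, 1264 and 1141 in vehicle and 479, 620 and 546 in fraction cells. All fraction arrays were below all vehicle arrays of the same state. The difference was -2.27 ± 0.17 (adjusted p = 5.7e-09) without LPS, a level 4.81-fold lower, and -1.0 ± 0.17 (1.9e-04) with LPS, 2.01-fold lower. Both passed under all 29 alternatives.

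Insig2, the second INSIG gene, read 798, 680 and 730 in vehicle and 880, 906 and 903 in fraction cells. With LPS it read 713, 598 and 619 in vehicle and 713, 761 and 748 in fraction cells. The fraction arrays were the higher ones in both states, by 0.29 ± 0.09 (0.024) and 0.21 ± 0.09 (0.12). The first call was lost under 7 of 29 alternatives. Among them were centring each array on its median (0.16, adjusted p = 0.42) and leaving out vehicle array 2 (0.11), vehicle array 3 (0.058), fraction array 2 (0.068) or fraction array 3 (0.057). The other 2 probe sets of Insig2 were at 0.35 and 0.14 without LPS and at 0.28 and -0.08 with LPS, and did not pass. With LPS, the direction thus differed between probe sets.

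Srebf2, which encodes SREBP2, read 1878, 2382 and 1764 in vehicle and 1357, 1575 and 1406 in fraction cells. Under LPS the values were 1777, 2240 and 2288 in vehicle and 1730, 1805 and 1345 in fraction cells. The groups were separate without LPS and overlapped with it, and the differences were -0.46 ± 0.13 (0.0083) and -0.37 ± 0.13 (0.038). The first call was lost without vehicle array 2 (0.063), and the second under 8 of 29 alternatives, with adjusted p from 0.0099 to 0.22. Among these were leaving out vehicle LPS array 2 (0.13), vehicle LPS array 3 (0.14) or fraction LPS array 3 (0.22). The other probe set of Srebf2 passed without LPS (-0.76, adjusted p = 1.9e-04) and did not pass with LPS (-0.32, 0.094).

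Scap, the escort of SREBPs, read 2116, 2207 and 1889 in vehicle and 1641, 1687 and 1468 in fraction cells. The LPS arrays gave 2139, 2008 and 1782 in vehicle and 2146, 1682 and 1674 in fraction cells. The groups were separate without LPS only, with differences of -0.37 ± 0.11 (0.011) and -0.11 ± 0.11 (0.49). Leaving out vehicle array 2 (0.051) or fraction array 3 (0.054) ended the first call, and the difference between the LPS states was not shown, since no interaction passed for Scap.

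The 2 proteases that activate SREBPs did not pass. Mbtps1, the site 1 protease, read 1971, 2132 and 1943 in vehicle and 1824, 1746 and 1839 in fraction cells. With LPS it read 1682, 1688 and 1616 in vehicle and 1518, 1695 and 1515 in fraction cells. The first 2 groups did not overlap, but the differences of -0.16 (95% interval -0.32 to 0.0007) and -0.08 (-0.24 to 0.08) did not pass. Mbtps2, the site 2 protease, read 3303, 2590 and 3341 in vehicle and 3224, 3314 and 3641 in fraction cells. Under LPS the values were 3052, 3079 and 3436 in vehicle and 3576, 3294 and 3712 in fraction cells. The groups overlapped in both states, at 0.15 (-0.04 to 0.34) and 0.15 (-0.05 to 0.34).

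Of the 3 measured genes of transport and acetate use, 2 were lower in both states. Stard4, a soluble carrier that moves cholesterol between membranes, read 909, 1023 and 946 in vehicle and 278, 364 and 406 in fraction cells. The LPS arrays gave 962, 1190 and 894 in vehicle and 276, 314 and 307 in fraction cells. The groups were far apart in both states, and the differences of -1.47 ± 0.14 (2.5e-07) and -1.76 ± 0.14 (5.7e-08) were the third largest and the largest of the set. Its 3 probe sets all passed as lower in both states. Tmem97, an endoplasmic reticulum protein that binds sterols, was at -0.94 ± 0.12 (8.8e-06) and -1.0 ± 0.12 (7.1e-06). Acss2, which makes acetyl-CoA from acetate, was at -0.05 (95% interval -0.31 to 0.21) and -0.23 (-0.49 to 0.03) and did not pass.

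Ranked by the fraction effect averaged over the 2 LPS states, Insig1 was 26th, Stard4 30th and Hmgcs1 33rd from the lowest of 11547 genes. Of the 100 lowest genes, 5 were members of the set, and of the 200 lowest, 9. Across the 27 genes, the effect without LPS and the effect with LPS, which share no array, correlated at Pearson's r = 0.81 and Spearman's rho = 0.88. Across all 11547 genes the values were 0.56 and 0.58. Genes measured on the same arrays are not independent, and these correlations are descriptions. Besides the brightest probe sets, 29 further probe sets of these genes passed the filter. Without LPS 14 of them passed as lower and 0 as higher, and with LPS 13 and 0, with adjustment over all kept probe sets. They are further readings of the same genes on the same arrays, several of 1 gene in some cases, and not separate observations. No share over all kept probe sets is given beside these counts.

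**Figure D3:**
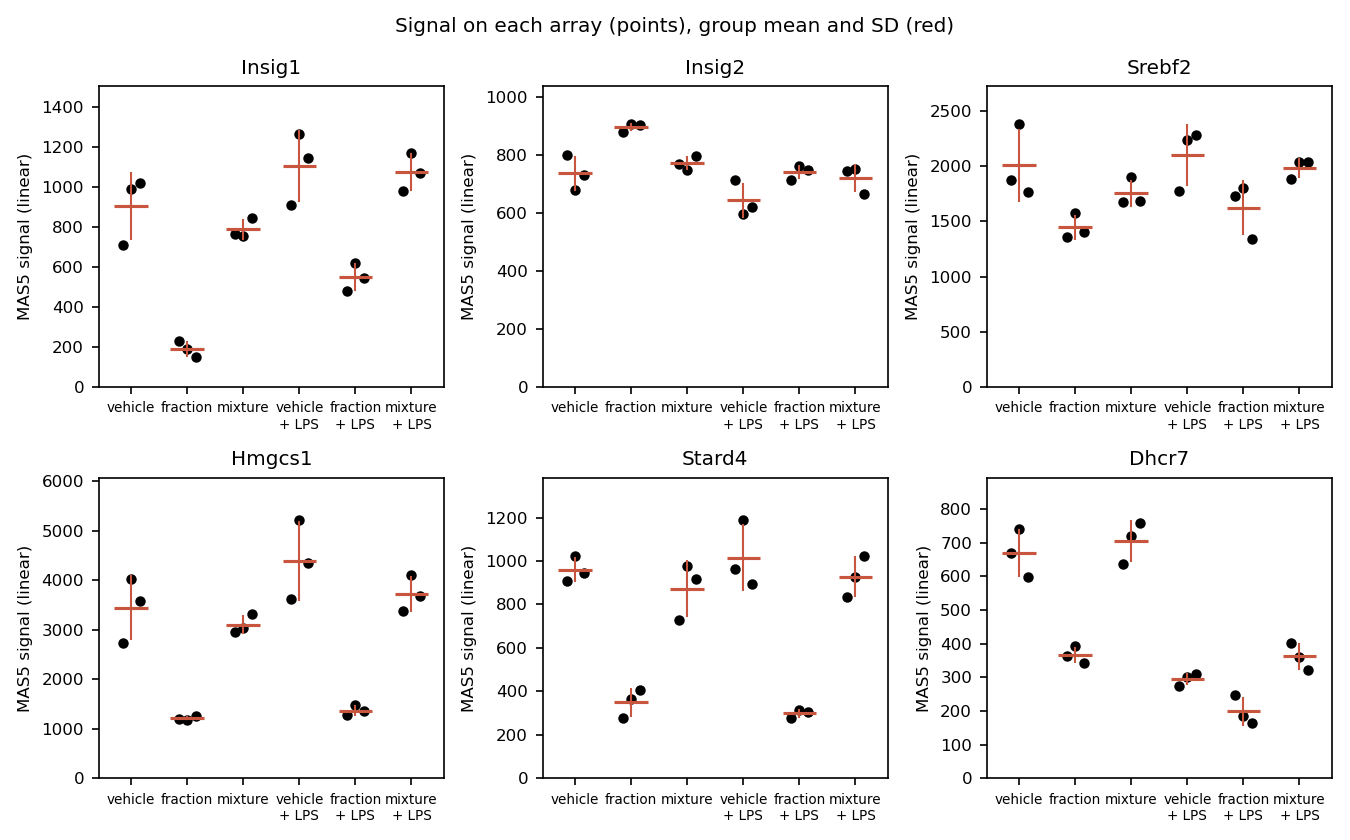
MAS5 signal (linear scale from 0) of Insig1, Insig2, Srebf2, Hmgcs1, Stard4 and Dhcr7 on each array (black points), with the group mean and SD in red, 3 arrays per group. Insig1, Hmgcs1 and Stard4 are low in both fraction groups, Insig2 differs little between groups, and Dhcr7 is low in all 3 groups with LPS.

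The second comparison was LPS against no LPS within each treatment. In vehicle cells 2 of the 27 genes were higher and 4 lower, against 10.1% and 21.8% of all genes. These counts depend on the probe set used. Further probe sets passed as lower for Mvd (-0.58, adjusted p = 0.0030), Stard4 (-0.41, 0.0078) and Acss2, and as higher for Hmgcs1 and Ggps1. The brightest probe sets of Mvd (-0.31, 0.12) and Stard4 (0.07, 0.74) did not pass. Dhcr7, which makes cholesterol from 7-dehydrocholesterol, fell by most. It read 669, 741 and 598 without LPS and 274, 302 and 309 with LPS in vehicle cells, a difference of -1.18 ± 0.14 (3.5e-06). In fraction cells it read 363, 392 and 344 without and 248, 185 and 163 with LPS, at -0.90 ± 0.14 (5.1e-05). In mixture cells it read 637, 719 and 760 without and 402, 361 and 323 with LPS, at -0.96 ± 0.14 (5.1e-05). The groups were separate in all 3 treatments, and the 3 calls held under every alternative run for them. Dhcr7 was thus lower with LPS and lower with the fraction, at -0.87 ± 0.14 (1.2e-04) without and -0.59 ± 0.14 (0.0050) with LPS.

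Also lower with LPS in vehicle cells were Acss2 (-0.48 ± 0.12, 0.0053), Tmem97 (-0.41 ± 0.12, 0.014) and Mbtps1 (-0.28 ± 0.08, 0.0090). Ggps1 was higher (0.46 ± 0.11, 0.0029) and held under all alternatives. Hmgcs1 was at 0.35 ± 0.13 (0.046), a call lost in 19 of 29 alternatives, among them leaving out vehicle array 1 (0.28) or vehicle LPS array 2 (0.26). Tmem97 was lost without vehicle array 2 (0.082), vehicle LPS array 2 (0.065) or vehicle LPS array 3 (0.060), and Acss2 without the 6 arrays numbered 1 (0.070). The split of 2 higher and 4 lower became 1 and 5 with median centring and 3 and 2 with centring over the kept probe sets, settings that shift the median of all genes by -0.13 and 0.12. Tmem97 and Mbtps1 did not pass under the latter, at adjusted p = 0.11 and 0.20, nor did Mbtps1 when only the compared arrays were fitted (0.059).

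In fraction cells, 2 of 27 were higher with LPS and 11 lower, against 11.5% and 25.8% of all genes. Insig1 was higher by 1.56 ± 0.17 (4.8e-07), or 2.94-fold, and its 3 arrays with LPS were all above those without. Idi1 was at 0.29 ± 0.11 (0.045), a call lost in 16 of 29 alternatives, also when fraction array 2 (0.18), fraction array 3 (0.12), fraction LPS array 1 (0.13) or fraction LPS array 3 (0.18) was left out. The 11 lower genes were Dhcr7, Mvd (-0.70), Acss2 (-0.66), Lss (-0.49), Sc5d (-0.48), Tmem97 (-0.47), Fdft1 (-0.45), Sqle (-0.40), Pmvk (-0.37), Nsdhl (-0.34) and Insig2 (-0.27). The split of 2 and 11 became 3 and 7 with quantile normalization, 1 and 7 with median centring and 4 and 5 with centring over the kept probe sets. Under all 3 of these scalings Pmvk, Fdft1, Nsdhl and Insig2 did not pass, and under the last of them Sqle (-0.24, 0.16) and Tmem97 (-0.31, 0.063) did not pass either. Leaving out single arrays also ended the calls of Pmvk (without fraction array 1, 0.078, or fraction LPS array 1, 0.061), Nsdhl (fraction array 3, 0.088, or fraction LPS array 1, 0.081), and Fdft1 (fraction array 2, 0.069, or fraction LPS array 3, 0.068). The same held for Sqle (fraction array 2, 0.054, or fraction LPS array 2, 0.061) and for Insig2 (fraction array 2, 0.070, fraction array 3, 0.059, fraction LPS array 1, 0.083, or fraction LPS array 3, 0.052). In mixture cells Idi1 was higher (0.38 ± 0.11, 0.016) and Dhcr7 lower, 1 each, against 8.32% and 16.3% of all genes. The call for Idi1 was lost without mixture array 3 (0.086) or mixture LPS array 2 (0.076).

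Whether the fraction effect differed between LPS states was tested as an interaction, and 1 of the 27 genes passed, against 2.14% of all genes. That gene was Insig1, whose fraction effect was 1.26 ± 0.23 less negative with LPS (adjusted p = 0.0064, from 0.0014 to 0.032 over 29 alternatives). Put the other way, the LPS response of Insig1 was 0.30 (95% interval -0.05 to 0.64) in vehicle cells, 0.45 (0.10 to 0.79) in mixture cells and 1.56 (1.21 to 1.90) in fraction cells. The last of these passed, and that in mixture cells did not (adjusted p = 0.056), although it passed in 10 of 29 alternatives (0.0061 to 0.18 over all 29). Among these were fitting only the compared arrays (0.0061), centring over the kept probe sets (0.032) and leaving out vehicle array 1 (0.036), fraction array 1 (0.042), fraction array 3 (0.035) or vehicle LPS array 1 (0.041). Even so, its fraction arrays with LPS, at 479 to 620, stayed below the vehicle arrays without LPS, at 707 to 1017. At an unadjusted p under 0.05 the count was 5, and the other 4 lay on the opposite side, with Fdft1 at -0.58 (adjusted p = 0.19), Sc5d at -0.50 (0.10), Cyp51 at -0.46 (0.31) and Lss at -0.42 (0.22). None of these 4 passed after adjustment. No share of all genes at the unadjusted threshold is given here, and no pattern is read from these 4. Of the 27 interaction terms 19 were below 0, as were 54.2% of those of all genes.

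**Figure D4:**
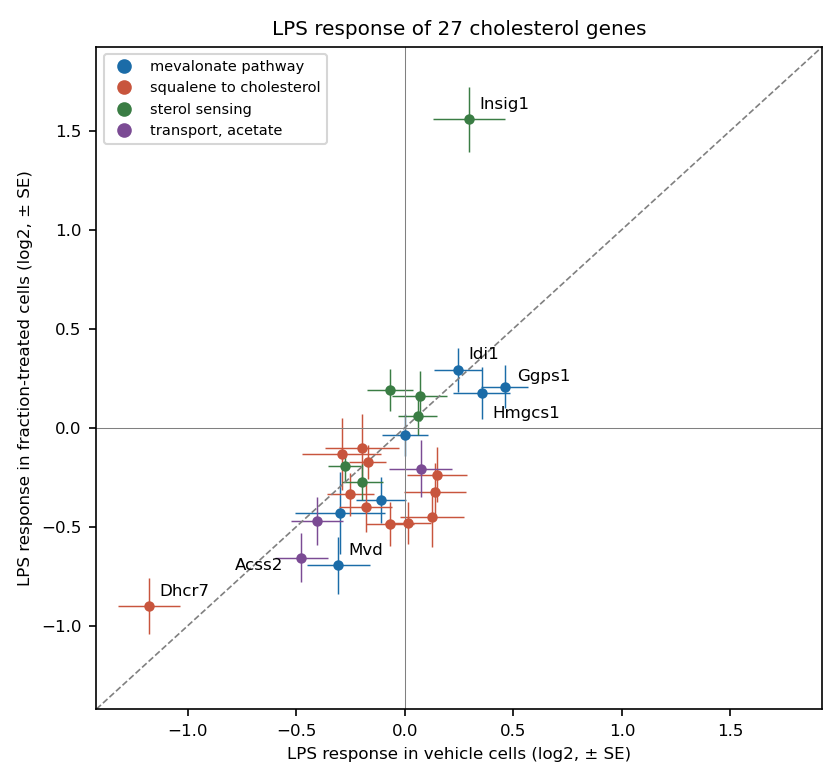
LPS response (log2 difference ± SE, 3 arrays per group) of the 27 genes in vehicle cells (horizontal axis) against fraction cells (vertical axis), coloured by role, with a dashed line of equal response. Insig1 lies far above the line at 0.30 and 1.56, and Dhcr7 is lowest in both at -1.18 and -0.90.

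The third question was whether the 4 compounds together did what the fraction did. With limma, 0 of the 27 genes passed between mixture and vehicle without LPS, with LPS, or averaged over both, as did 0% of all genes, and at an unadjusted p under 0.05 the count among the 27 was also 0 in each. The count among the 27 stayed at 0 under all 29 alternatives, but that over all genes did not. Without vehicle LPS array 1, 91 of all genes were higher and 100 lower with LPS, and 30 and 65 in the average. Without the 6 arrays numbered 1 these counts were 13 and 50, and 24 and 84. In mixture cells without LPS, Insig1 read 762, 752 and 845, Hmgcs1 read 2949, 3038 and 3323, and Stard4 read 728, 976 and 916. All but the first Stard4 array lay within the range of the vehicle arrays. With LPS, Insig1 read 978, 1169 and 1069, Hmgcs1 read 3377, 4107 and 3679, and Stard4 read 835, 925 and 1025 in mixture cells. The first array of Hmgcs1 and of Stard4 lay just below the vehicle range, and the others within it. The differences for Insig1 were -0.18 (95% interval -0.53 to 0.16) without and -0.03 (-0.38 to 0.31) with LPS. Over all 27 genes the intervals reached from -0.53 to 0.38 without LPS and from -0.55 to 0.68 with LPS, so a change as large as that of Insig1, Hmgcs1, Stard4, Idi1 or Sqle with the fraction lay outside them.

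Against the mixture, the fraction was lower for 16 of the 27 genes without LPS and for 18 with LPS, where 15.4% and 16.2% of all genes were lower, and higher for 0, where 17% and 12% of all genes were higher. At an unadjusted p under 0.05, Insig2 without LPS was the only gene on the higher side. Insig1 was at -2.08 ± 0.17 (1.7e-08) and -0.97 ± 0.17 (2.0e-04), Hmgcs1 at -1.35 ± 0.13 (2.3e-07) and -1.44 ± 0.13 (1.6e-07), and Stard4 at -1.33 ± 0.14 (9.7e-07) and -1.63 ± 0.14 (1.0e-07). Insig2 did not pass against the mixture, at 0.22 ± 0.09 (0.085) and 0.04 ± 0.09 (0.79). These comparisons share the fraction arrays with those against vehicle and are not a second, independent observation. The interaction of mixture and LPS passed for 0 of the 27 genes, with 0 at an unadjusted p under 0.05 and 0% of all genes.

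**Figure D5:**
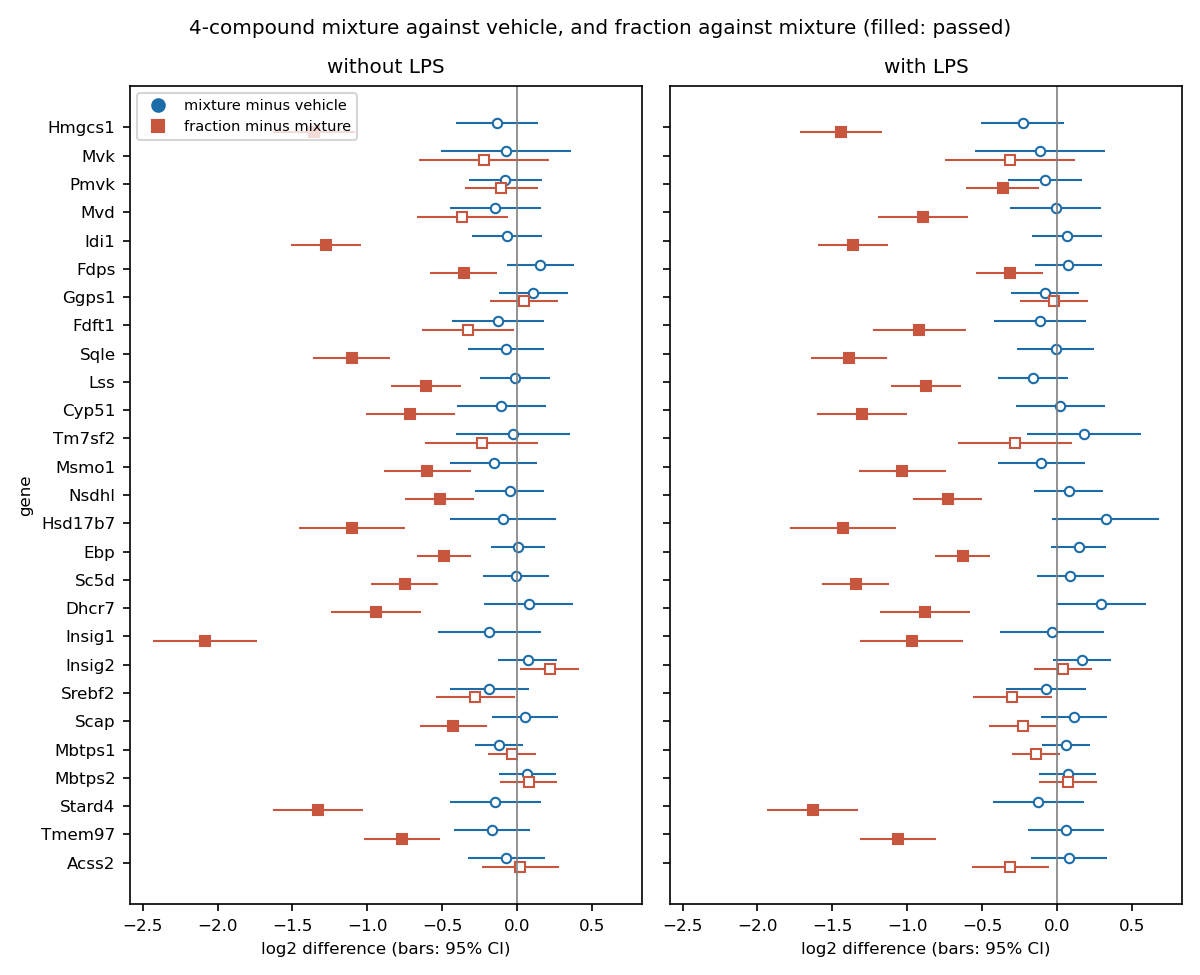
Log2 difference of mixture minus vehicle (blue circles) and fraction minus mixture (red squares) for the 27 genes, without LPS (left) and with LPS (right), with 95% confidence intervals as bars and filled symbols for adjusted p under 0.05. All blue symbols are open and their intervals span 0, while 16 and 18 red symbols are filled and lie to the left.

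Genes that adjoin the pathway were read from 4 further lists. Of 13 genes of fatty acid synthesis that SREBPs are known to drive, 8 were lower and 1 higher with the fraction without LPS, and 6 and 1 with LPS. For these lists too, the shares over all genes are 15.3% lower and 15.9% higher without LPS, and 12.7% and 11.1% with LPS. Without LPS the genes included Fasn, the fatty acid synthase (-1.26 ± 0.09, 2.6e-09), Elovl6, an elongase (-1.15 ± 0.14), Scd2, a desaturase (-1.12 ± 0.22), and Fads2, another desaturase (-0.70 ± 0.14). With LPS Scd2 was at -2.37 ± 0.22 (2.7e-07), Elovl6 at -1.30 ± 0.14 and Acly, which supplies cytosolic acetyl-CoA, at -0.65 ± 0.06. Mid1ip1, which binds and promotes acetyl-CoA carboxylase, was the gene on the higher side, at 0.64 ± 0.15 and 0.75 ± 0.15.

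Of 13 genes of sterol transport and efflux, 4 were higher and 3 lower without LPS, and 0 higher and 5 lower with LPS, where 15.9% and 15.3%, and 11.1% and 12.7%, of all genes were so. With limma at an unadjusted p under 0.05, 2 genes were higher with LPS. Lrp8, a lipoprotein receptor, was at -1.26 ± 0.12 (1.2e-07) and -0.91 ± 0.12 (1.5e-05), and Scarb1, the scavenger receptor that binds HDL, at -0.88 ± 0.11 (5.1e-06) and -1.22 ± 0.11 (1.5e-07). Npc1, which moves cholesterol out of lysosomes, was at 0.99 ± 0.17 (2.0e-04) without LPS. Abca1, the main cholesterol exporter of macrophages, was higher without LPS (0.73 ± 0.27, 0.045) and lower with it (-0.86 ± 0.27, 0.025). The first of these calls was lost in 17 of 29 alternatives, among them leaving out any 1 of the 6 compared arrays (adjusted p up to 0.15), and the second in 6, also without array 2 or 3 of vehicle LPS or fraction LPS (up to 0.15). With LPS Abcg1, a second exporter, was at -0.64 ± 0.21 (0.029), lost without vehicle LPS array 3 or fraction LPS array 1 (up to 0.16).

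Of 10 genes that act in the turnover of sterol sensors and sterol enzymes, 2 were higher and 3 lower without LPS, and 2 and 1 with LPS, where the shares over all genes were 15.9% higher and 15.3% lower, and 11.1% and 12.7%, and nothing particular to so short a list is read from it. Without LPS Erlin1, a membrane scaffold of this machinery, was at 0.77 ± 0.11 (2.1e-05), Nploc4, a cofactor of the extracting ATPase VCP, at -0.47 ± 0.10 (0.0013), and Erlin2, the partner of Erlin1, at -0.35 ± 0.11 (0.023, lost without vehicle array 2, fraction array 1 or fraction array 2, up to 0.17). With LPS Rnf145, a ubiquitin ligase, was at 0.78 ± 0.11 (2.6e-05), Marchf6, another, at 0.55 ± 0.08 (4.8e-05), and Rnf139, a further one, at -0.32 ± 0.10 (0.018, lost without vehicle LPS array 2 or fraction LPS array 1, up to 0.14). Of 11 genes of the isoprenoid branch, 2 were higher and 2 lower without LPS, and 3 and 1 with LPS, to be read against the same shares and in the same way. There Icmt, a prenylcysteine methyltransferase, was at -0.64 ± 0.15 (0.0022) and -0.45 ± 0.15 (0.031, lost in 7 of 29 alternatives, also without array 1 or 2 of vehicle LPS or 2 or 3 of fraction LPS, up to 0.16). Rabggta, a subunit of Rab geranylgeranyl transferase, was at 0.38 ± 0.13 (0.026, lost in 7 of 29 alternatives, also without vehicle array 3, fraction array 1 or fraction array 2, up to 0.32) and 0.48 ± 0.13 (0.0087). Pggt1b, a subunit of another geranylgeranyl transferase, was at 0.65 ± 0.16 (0.0033) without LPS. Between mixture and vehicle, 0 genes of these 4 lists passed with limma in either LPS state, where 0 to 2 genes per list were higher and 0 to 1 lower at an unadjusted p under 0.05.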

How the data were processed

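RNA of 18 samples was read on Affymetrix mouse arrays. The authors deposited MAS5 signal, a linear intensity per probe set, per the labels and the values. The MAS5 version is not given in the sources used here. Each array had a trimmed mean of 500 (2% trimmed) and a median between 52.1 and 66.8. Array number limits the precision.

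Values under 1 (0.824% of all) were set to 1 before log2. Of 45101 probe sets, those at or above the array median on at least 3 arrays were kept (25612), and the brightest of each gene with 1 symbol was used, which left 11547 genes. Symbols came from the platform's annotation and were updated by Entrez ID for 34741 probe sets. limma 3.58.1 in R 4.3.3 (lmFit, eBayes with trend) fitted all 6 groups with no block and 12 residual degrees of freedom, with Benjamini-Hochberg adjustment over all genes in each of 12 contrasts, a threshold of 0.05 and 95% intervals. The steps were tested on simulated data. Every measured gene of the set is named, and up to 4 genes per neighbouring list. Values per array are given for the 8 with the largest mean fraction effect, the 6 genes of sterol sensing and SREBP processing and those called against the majority. The genes and lists were chosen with earlier results of these data known. Alternatives changed the scaling, floor, filter, probe set choice, trend, arrays fitted and replicate block, and left out each array. Centring over the kept probe sets was added after seeing the data. Array numbers were not taken as pairs, since in 0 of 15 pairs of groups did every same-numbered pair correlate above 0.1 after group means were subtracted. Yet all same-numbered pairs correlated positively (0.018 to 0.17). The means for other numbers were all negative (-0.060 to -0.023). That follows from subtracting group means when same-numbered pairs are positive, and it is not a separate observation. A small shift by array number is thus in the data, and the fit without a block leaves it in the spread.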

Additional observations from a re-analysis of the deposited data

Results flagged for a closer look

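Whether the effect of the fraction differed between the LPS states was tested on the difference itself (limma interaction, adjusted over all genes). It differed for 1 of the 27 genes of the set and for 4 genes of the neighbouring lists, against 2.14% of all genes. The 4 lists had 11, 10, 13 and 13 measured genes. Nothing about the set or the lists as a whole is read from so few calls. For Insig1 the difference was 1.26 (adjusted p = 0.0064), with a fraction effect of -2.27 without LPS and -1.0 with it, and the call held in all 29 alternatives. Rnf145, a ubiquitin ligase, differed by 0.86 (0.0041) and also held in all. Fasn differed by 0.62 (0.010), and that call was lost with median centring (0.10) and without the 6 arrays numbered 1 (0.054). Abca1 differed by -1.60 (0.031), lost in 12 of 29 alternatives, and Scd2 by -1.26 (0.040), lost in 18 of 29. For both, the lost cases include leaving out vehicle array 1 (0.051 and 0.094), vehicle array 3 (0.064 and 0.057), fraction array 2 (0.065 and 0.081), fraction array 3 (0.079 and 0.069), vehicle LPS array 2 (0.098 and 0.089), vehicle LPS array 3 (0.084 and 0.087) or fraction LPS array 3 (0.074 and 0.078). Abca1 was also lost without vehicle array 2 (0.074) or fraction LPS array 2 (0.082), and Scd2 without fraction LPS array 1 (0.11). The cause of these differences was not tested.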

How the results depend on the processing

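No direction of a called gene turned under any of the 29 alternatives. The number of the 27 genes called between fraction and vehicle was 14 to 19 without LPS (19 as reported) and 16 to 20 with LPS (18 as reported), and leaving out 1 array gave the same ranges. Of the reported calls, 14 of 19 and 16 of 18 held in every alternative run for them. Against the mixture the count was 15 to 19 and 16 to 20. For LPS in mixture cells, the 2 calls became 5 with the replicate block, 4 with centring over the kept probe sets, and 1 to 3 when 1 array was left out. The block is also among the settings under which the LPS response of Insig1 in mixture cells passed (0.033). For LPS in fraction cells, the 13 calls became 8 with median centring and 15 with the replicate block. The calls over all genes moved as well, from 1330 higher and 2979 lower to 968 and 2387 with median centring. With the block they were 1547 and 3279. With the replicate block, the interaction of fraction and LPS had 2 calls in place of 1, the added gene being Fdft1 (adjusted p = 0.044). After group means were subtracted, all 18 arrays correlated best, on average, with those arrays of other groups that bore their own number. The correlations between same-numbered arrays were small, at 0.018 to 0.17. This is a hint from the data and not from the design, so the block was not used for the results. The cause of these changes was not tested. Median centring shifted the median of all genes by -0.13 between fraction and vehicle without LPS, and the split of all calls there went from 1837 higher and 1771 lower to 940 and 1968, while the set had 0 higher and 18 lower. With 3 arrays per group and 1 time, small changes of dim probe sets are beyond these data.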
